A study of Mus musculus with 2 samples.

Results

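The lysine and arginine methyltransferases and the lysine demethylases that write and erase methyl marks, mainly on histones, were examined in G1E, an immortalised mouse cell line. The set was made of 50 of the 43346 gene entries measured. A gene was a member when it was protein-coding in GENCODE M21 and its symbol began with Kmt2, Kmt5, Setd, Ehmt, Suv39h, Kdm or Prmt, or was Nsd1, Nsd2, Nsd3, Dot1l or Ash1l. Kdm1a, Kdm5d and enzymes with other symbols were outside this rule. By protein family there were 27 lysine methyltransferases (DOT1L and enzymes with a SET domain), 16 lysine demethylases and 7 arginine methyltransferases. Prmt1, the main type I arginine methyltransferase of most cells, was not a member, because its M21 gene identifier was not among the entries. A single entry, ENSMUSG00000052429.13, shared 2 transcript identifiers with Prmt1 and stood at 61.2 TPM in replicate 1 and 78.0 TPM in replicate 2.

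The samples were 2 paired-end libraries of polyadenylated RNA, replicate 1 and replicate 2, from male G1E cells labelled as an erythroid progenitor and as Gata1-, with no treatment named. G1E was made from embryonic stem cells with a disrupted Gata1 gene, and GATA1 is the factor that drives red cell maturation. The libraries formed 1 group, so no condition could be compared, and the labels trace both to 1 shared cell sample, so the spread between them may be technical. Replicate 1 held 61982634 expected counts, which are estimated numbers of read pairs, and replicate 2 held 80658648. Levels are given in TPM, which scales counts by transcript length and by the library's total, and errors are SD over the libraries (n = 2). All 8 erythroid progenitor markers were detected, from 48.0 and 46.6 TPM for Gata1 itself to 1232 and 1159 TPM for Zfpm1. The RNA level of a disrupted gene does not check the label Gata1-. Of 10 markers of other cells, Mpo and Cpa3 were detected, both under 3.5 TPM, and the summed level of the 10 was 4.94 and 5.31 TPM.

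Methylation of a histone lysine does not change the charge of the side chain; it changes which reader proteins bind. Marks at H3K4 lie at active promoters and enhancers, H3K36 and H3K79 methylation accompany transcribed gene bodies, H3K9 and H4K20 methylation mark silent chromatin, and H3K27 methylation is the Polycomb mark. Arginine methyltransferases of type I make asymmetric dimethylarginine, those of type II make the symmetric form, and many of their substrates are RNA-binding proteins rather than histones.

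Nearly the whole set was expressed. A level of 1 TPM or more in both libraries, taken as detection, was reached by 47 of 50 members (94.0%), against 8581 of 21474 protein-coding genes (39.96%). There were 29 members at 10 TPM or more in both libraries and 9 at 100 TPM or more. Over the detected members the median was 20.8 TPM in replicate 1 and 23.1 TPM in replicate 2, and over all detected protein-coding genes it was 17.0 and 19.0 TPM. In such bulk RNA, fewer cells with a transcript and less RNA per cell cannot be told apart. The members not detected were Kdm7a, Kdm4d and Prmt8. The summed level was 2721 TPM in replicate 1 and 2685 TPM in replicate 2, and Ehmt2, Kmt5a, Kmt5c and Prmt5 together held 47.5% and 42.5% of it. In the order of mean TPM, 30 of the 49 neighbouring pairs had ranges that overlapped between the libraries, so single places in the order are not resolved.

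Much of the members' summed TPM was assigned to transcripts that do not carry the gene's whole coding sequence. A full coding transcript is taken here as one that M21 types as protein-coding with at least 90% of the longest coding sequence quantified for its gene. Such transcripts held 45.6% of the members' summed TPM in replicate 1 and 50.1% in replicate 2, against 61.7% and 63.3% over all detected protein-coding genes. The median share was 63.3% over the 47 detected members and 91.3% over detected protein-coding genes. In 17 of 47 detected members (36.2%) it was under 50% in both libraries, and the share of detected protein-coding genes below that mark was 29.9%. In these values Kdm5a was entered at 0, because a long transcript of it could not be typed. At the other end, 17 members (36.2%) had 90% or more in both libraries, as did 49.3% of detected protein-coding genes. Detected members had a median of 6 quantified transcripts and detected protein-coding genes a median of 4. How the number of annotated transcripts bears on these shares was not tested. They are shares of TPM, in which a count on a short transcript weighs more than one on a long transcript. Shares of counts can differ.

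The transcripts that lead several members are shown first, because the levels below turn on them. Each sequence runs 5′ to 3′ on the transcript's strand. Lower case marks coding bases shared with the gene's longest coding transcript, and capitals mark bases outside that transcript's exons. They come from GENCODE M21 on mm10, and the positions in the next paragraph are those of the capitals. Bases in capitals are cut at 130 where the stretch is longer.
Prmt5-203: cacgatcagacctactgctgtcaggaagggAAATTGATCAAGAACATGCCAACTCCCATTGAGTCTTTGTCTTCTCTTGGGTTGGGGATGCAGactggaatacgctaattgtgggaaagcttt
Prmt3-207: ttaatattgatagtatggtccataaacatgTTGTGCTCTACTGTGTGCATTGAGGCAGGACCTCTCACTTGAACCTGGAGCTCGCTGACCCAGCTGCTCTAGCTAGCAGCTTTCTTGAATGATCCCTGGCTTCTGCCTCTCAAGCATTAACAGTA
Ehmt2-205: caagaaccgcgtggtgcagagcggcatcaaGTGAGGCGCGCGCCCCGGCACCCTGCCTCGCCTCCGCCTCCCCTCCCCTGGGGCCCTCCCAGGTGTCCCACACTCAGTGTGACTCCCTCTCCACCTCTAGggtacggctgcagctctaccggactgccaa
Kdm5a-208: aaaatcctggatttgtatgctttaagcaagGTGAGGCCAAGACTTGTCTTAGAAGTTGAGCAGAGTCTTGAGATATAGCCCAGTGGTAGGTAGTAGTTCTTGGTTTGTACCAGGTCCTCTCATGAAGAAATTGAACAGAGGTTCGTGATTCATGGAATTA
Kdm5b-202: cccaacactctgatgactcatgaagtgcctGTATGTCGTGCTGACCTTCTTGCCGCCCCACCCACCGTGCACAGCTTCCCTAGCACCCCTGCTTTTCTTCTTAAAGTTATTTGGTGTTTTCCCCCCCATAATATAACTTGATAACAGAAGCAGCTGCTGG
Kdm6a-203: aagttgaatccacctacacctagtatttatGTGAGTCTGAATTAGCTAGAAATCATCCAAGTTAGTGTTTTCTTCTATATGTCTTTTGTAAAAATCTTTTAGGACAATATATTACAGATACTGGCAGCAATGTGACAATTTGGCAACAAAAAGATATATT
Kdm2b-201: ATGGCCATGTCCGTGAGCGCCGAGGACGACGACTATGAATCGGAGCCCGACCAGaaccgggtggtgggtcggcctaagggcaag

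Prmt5-203 is a noncoding processed transcript of 338 bases that shares coding bases 1 to 270 of Prmt5 but carries an extra exon of 63 bases (chr14:54516192-54516254, minus strand). Prmt3-207, of 404 bases, follows the first 241 coding bases of Prmt3 and then ends in 125 bases of its own (chr7:49780511-49780635, plus strand). In Ehmt2-205 the capitals are a whole retained intron of 100 bases (chr17:34911479-34911578, plus strand), which opens with GT and closes with AG as introns do. Kdm5a-208 (chr6:120369055-120369184), Kdm5b-202 (chr1:134605876-134606005) and Kdm6a-203 (chrX:18257966-18258095), all on the plus strand, run from coding exons across a splice donor that opens with GT and end in the intron. The intronic ends measure 554, 916 and 1003 bases. Kdm2b-201 is a protein-coding short form, and its capitals (chr5:122900149-122900202, minus strand) are the first 54 coding bases of its own start.

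**Figure D1:**
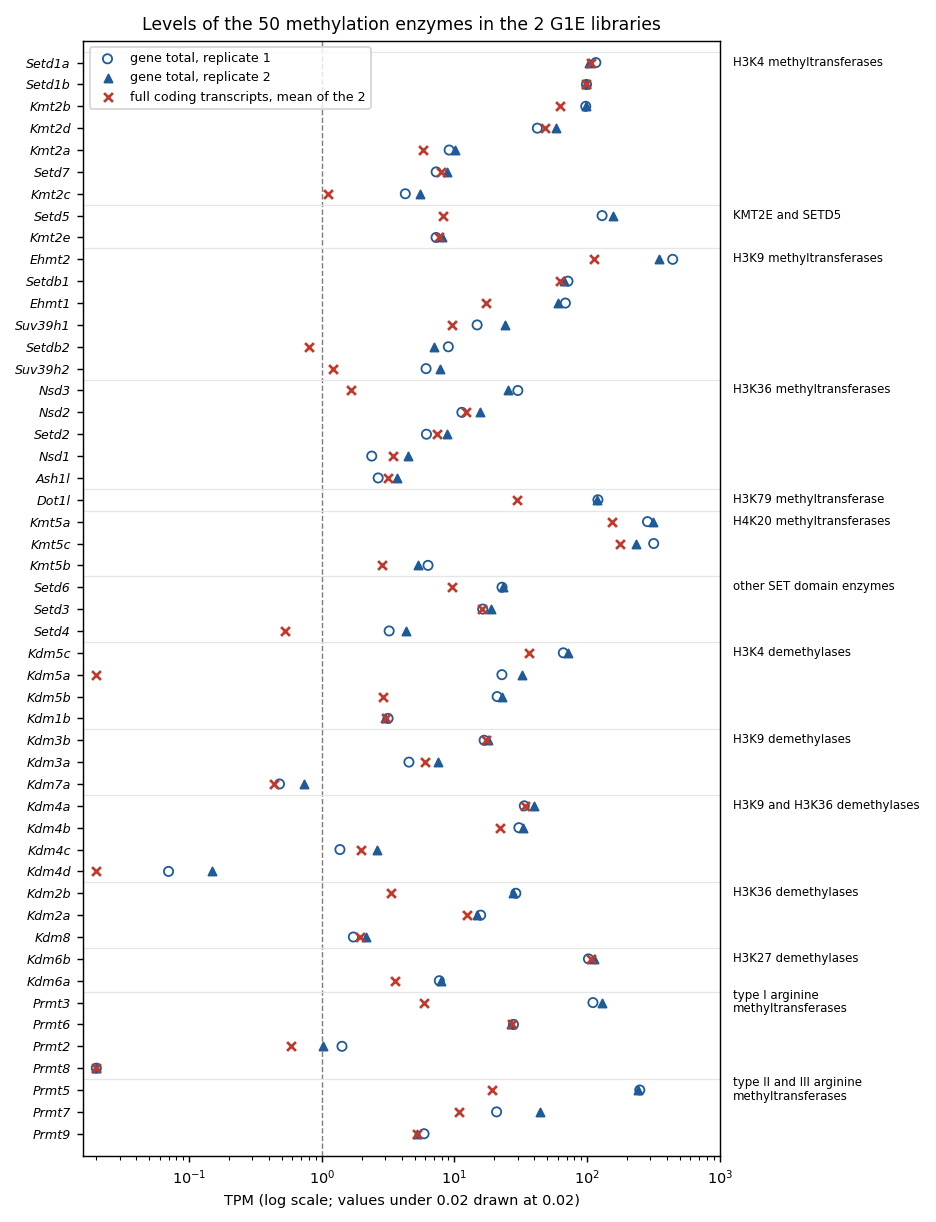
TPM of the 50 enzymes on a log axis, grouped by role. Circles are replicate 1 and triangles replicate 2 for the whole gene, crosses are the mean TPM of full coding transcripts over the libraries, and the dashed line marks 1 TPM. For Prmt5, Prmt3, Setd5, Kdm2b and Nsd3 the cross lies far to the left of both gene totals, while for Kdm6b, Setd1a and Setd1b all marks fall together. The cross of Kdm5a lies at the left end of the axis because its full coding level was entered at 0.

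The H3K4 methyltransferases of the SET1 and MLL families were all expressed, and in the MLL pairs 1 paralogue was far above the other. Setd1a and Setd1b, catalytic subunits of the SET1 complexes that make most H3K4 trimethylation, were nearly level. Setd1a stood at 116 TPM in replicate 1 and 104 TPM in replicate 2, and Setd1b at 98.9 and 98.6 TPM. Setd1a was the higher in both libraries, by 1.18-fold and 1.05-fold. Full coding transcripts held 96.7% or more of both genes in each library. In M21 a second gene, Gm49388, shares 3523 exon bases with Setd1a on the same strand and is not analysed here.

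Kmt2b, which encodes MLL2, stood at 97.6 and 98.3 TPM, and Kmt2a, which encodes MLL1, a fusion partner in leukaemia and a regulator of Hox genes, at 9.12 and 10.2 TPM. The log2 ratio of Kmt2a to Kmt2b was -3.35 ± 0.10 (SD, n = 2), which puts Kmt2a at 0.0934 and 0.103 of Kmt2b. Full coding Kmt2a was 4.64 and 6.85 TPM, and full coding Kmt2b was 60.1 and 63.9 TPM. On that measure the log2 ratio was -3.458 ± 0.335 (SD, n = 2), a wider spread. Among the enhancer H3K4 monomethyltransferases, Kmt2d (MLL4) stood at 42.1 and 58.3 TPM and Kmt2c (MLL3) at 4.26 and 5.49 TPM. Kmt2d was thus 9.89-fold and 10.6-fold higher than Kmt2c. The Kmt2d total came from 44612 and 77707 expected counts over transcripts of up to 19823 bases. No member had more in replicate 2, and in replicate 1 only Ehmt2 did, with 44636. Kmt2c rested largely on partial transcripts, with 20.9% and 24.04% of its TPM on the full coding Kmt2c-201, so its full coding level was 0.89 and 1.32 TPM. Setd7, which monomethylates H3K4 and many other proteins, stood at 7.28 and 8.74 TPM, and 98.7% or more of it was full coding.

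Kmt2e and Setd5 encode related SET proteins for which histone methyltransferase activity is absent or disputed. Kmt2e stood at 7.27 and 8.03 TPM, all of it full coding. Setd5 was far higher by gene total, at 130 TPM in replicate 1 and 155 TPM in replicate 2. Only 6.18% and 5.44% of Setd5 TPM was full coding, which is 8.00 and 8.45 TPM. The rest was nearly all Setd5-205 and Setd5-206, noncoding transcripts of 811 and 839 bases. On full coding transcripts both genes stood at like levels, and Setd5 went from place 5 to place 24.

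Ehmt2, which encodes G9a, the main H3K9 dimethyltransferase of euchromatin, was the highest member by gene total (ENSMUSG00000013787.11, chr17:34898469-34914052). It stood at 442 TPM in replicate 1 and 349 TPM in replicate 2. Its partner Ehmt1 (GLP), with which G9a forms a heterodimer, stood at 68.5 and 60.6 TPM, 6.44-fold and 5.76-fold lower. The retained intron transcript Ehmt2-205 took 35.7% and 31.2% of Ehmt2 TPM, and Ehmt2-206, a fragment of 1325 coding bases, took 34.4% and 29.9%. By expected counts, full coding transcripts held 51.9% and 60.6% of Ehmt2. Full coding transcripts held 113 and 114 TPM, so the other transcripts made up the difference between the libraries in the total. For Ehmt1, Ehmt1-212, a transcript of 756 bases typed as a target of nonsense-mediated decay, took 52.1% and 48.6%.

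The other H3K9 methyltransferases were below Ehmt2. Setdb1, which trimethylates H3K9 at retroelements with TRIM28, stood at 71.7 and 66.7 TPM, and Setdb2 at 8.99 and 7.02 TPM. The gap between them was 7.98-fold and 9.50-fold. In Setdb2, Setdb2-204, a processed transcript of 410 bases, took 91.3% and 85.7%, which left 0.66 and 0.95 TPM on full coding transcripts. Suv39h1, which trimethylates H3K9 in pericentric heterochromatin, stood at 14.8 and 23.9 TPM and its paralogue Suv39h2 at 6.11 and 7.77 TPM. Retained intron transcripts were large in Suv39h1, where Suv39h1-205 took 49.3% and 35.5%.

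Of the H3K36 methyltransferases, Nsd3 was highest by gene total, at 30.04 and 25.4 TPM, followed by Nsd2 at 11.4 and 15.5 TPM. Setd2, the enzyme that trimethylates H3K36 behind elongating polymerase, stood at 6.15 and 8.73 TPM. Ash1l was at 2.66 and 3.71 TPM and Nsd1 at 2.38 and 4.47 TPM, and their ranges overlap. The place of Nsd3 rested on short transcripts. Nsd3-208, a protein-coding short form, took 34.6% and 36.8%, and Nsd3-207, another, took 41.7% in replicate 1 and 19.3% in replicate 2. The catalytic SET domain lies toward the end of the full protein, and the known short form of NSD3 lacks it. Full coding Nsd3 was 0.90 TPM in replicate 1 and 2.44 TPM in replicate 2. On full coding transcripts both Nsd2 and Nsd1 were above Nsd3, the reverse of the order by gene total. Counts per kilobase of the longest coding transcript put only Nsd2 above Nsd3. They were 9.665 and 12.7 for Nsd2, 8.42 and 7.44 for Nsd3, and 2.12 and 3.87 for Nsd1. The log2 ratio of Nsd2 to Nsd3 was -1.06 ± 0.49 (SD, n = 2) by gene total and 3.04 ± 0.76 on full coding transcripts.

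Dot1l encodes the sole known H3K79 methyltransferase, which has no SET domain and is recruited by AF9 and ENL, the products of Mllt3 and Mllt1. It stood at 121 TPM in replicate 1 and 120 TPM in replicate 2 (120.0 ± 0.764, SD, n = 2), a spread under 1% of the mean. Its transcripts were mixed. Dot1l-206, which starts within the coding sequence at base 652 of 4620, took 33.2% and 31.0%, and the full coding Dot1l-201 took 22.7% and 26.5%, or 27.3 and 31.6 TPM.

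The H4K20 methyltransferases Kmt5a and Kmt5c held places 2 and 3. Kmt5a, the only enzyme that monomethylates H4K20 and one tied to the cell cycle, stood at 285 and 315 TPM (ENSMUSG00000049327.13, chr5:124439930-124462308). Kmt5c (ENSMUSG00000059851.11, chr7:4740115-4747514), which makes the higher H4K20 methylation states with Kmt5b, stood at 317 TPM in replicate 1 and 235 TPM in replicate 2. The Kmt5a and Kmt5c ranges overlap, so neither was the higher. Kmt5c-212, typed as a target of nonsense-mediated decay, took 51.9 TPM of Kmt5c in replicate 1 and 0 in replicate 2. Kmt5b was at 6.32 and 5.34 TPM, and the log2 ratio of Kmt5b to Kmt5c was -5.55 ± 0.14 (SD, n = 2), the widest gap of the 19 pairs by gene total. Kmt5a-203, a retained intron transcript, took 49.3% and 44.1% of Kmt5a TPM. By expected counts, full coding transcripts held 75.7% and 80.6% of Kmt5a. On full coding transcripts Kmt5c, at 185 and 170 TPM, and Kmt5a, at 138 and 172 TPM, had the highest means of the members, and their ranges overlap. Setd6 and Setd3, whose best known substrates are not histones, stood at 22.8 and 23.1 TPM and at 16.3 and 19.0 TPM, and Setd4 at 3.22 and 4.35 TPM.

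**Figure D2:**
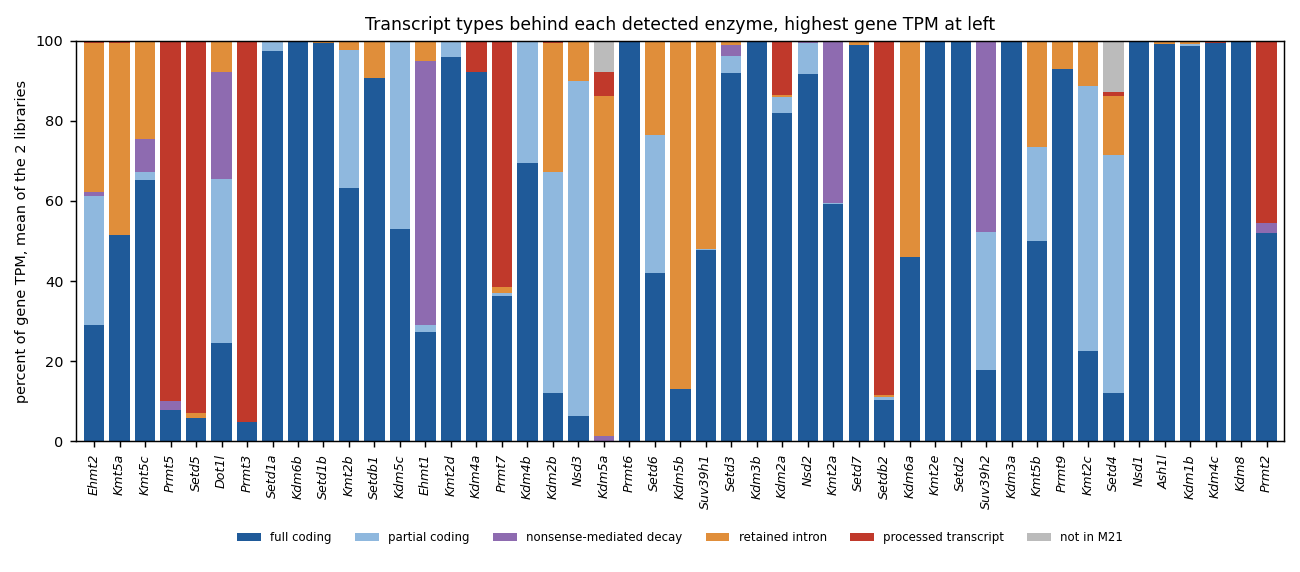
Percent of each detected member's TPM by transcript type, mean of the 2 libraries, with the highest gene TPM at left. Partial coding means protein-coding with less than 90% of the gene's longest coding sequence. Prmt5, Setd5 and Prmt3, among the 7 highest genes, are almost wholly noncoding processed transcript. In 17 of the 47 members the full coding share was at least 90% in each library, a count that bars of means do not show.

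Among the H3K4 demethylases, Kdm5c, an X-linked gene, was highest, at 66.1 and 72.1 TPM. Partial coding transcripts took 49.3% and 44.8% of Kdm5c TPM, mainly Kdm5c-205 of 756 bases. By expected counts, full coding transcripts held 91.4% and 92.6% of Kdm5c. Full coding Kdm5c was 33.5 and 39.8 TPM. Kdm5a and Kdm5b, its paralogues, stood at 22.8 and 32.2 TPM and at 20.97 and 22.7 TPM, and the lower Kdm5a value was close to the higher Kdm5b value. Intron-containing transcripts led both. Kdm5a-208, shown above, took 84.97% and 83.4% of Kdm5a, and Kdm5b-202 took 87.7% and 86.0% of Kdm5b. Full coding Kdm5b was 2.57 and 3.18 TPM. The full coding transcript of Kdm5a that M21 knows was listed at 0, while 8.03% and 7.52% of its TPM was on a transcript with no M21 counterpart. That transcript had 10969 bases, beside 10946 in the longest coding transcript of M21, and 1108 and 1854 counts. It could not be typed, so no full coding level is given for Kdm5a. Where a full coding value was needed over the whole set, Kdm5a was entered at 0. Kdm1b, the flavin-dependent relative of LSD1, stood at 3.16 and 3.02 TPM. Its exons share 505 bases with Dek on the other strand, and Dek stood at 1176 and 978 TPM. Whether counting used strand is not given in the sources used here, so the Kdm1b level is uncertain.

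For H3K27, where Kdm6a (UTX) and Kdm6b (JMJD3) oppose Polycomb, the genes were far apart. Kdm6b stood at 102 TPM in replicate 1 and 112 TPM in replicate 2, the highest demethylase, from 37170 and 51617 counts. X-linked Kdm6a stood at 7.69 and 7.85 TPM, 13.3-fold and 14.3-fold lower. Essentially all of Kdm6b was full coding, while Kdm6a-203, which ends in an intron after coding base 2832 of 4272, took 54.7% and 51.8% of Kdm6a. Full coding Kdm6a was 3.44 and 3.71 TPM, so the gap widened when only full coding transcripts were used. Uty and Kdm5d, the Y-linked counterparts of Kdm6a and Kdm5c, were listed at 0 in both libraries, although the labels give the cells as male.

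The H3K9 demethylases of the KDM3 family were moderate. Kdm3b stood at 16.7 and 18.0 TPM and Kdm3a, which is also a known target of hypoxia signalling, at 4.54 and 7.53 TPM, both nearly wholly full coding. Kdm4a and Kdm4b, which act on trimethylated H3K9 and H3K36, stood at 33.6 and 39.7 TPM and at 30.6 and 32.6 TPM. Kdm4c was much lower, at 1.37 and 2.62 TPM, so that Kdm4a was 24.5-fold and 15.1-fold above it. Kdm4d, a gene known for expression in testis, had 8 and 22 counts, or 0.07 and 0.15 TPM. Kdm7a had 0.48 and 0.74 TPM from 250 and 341 counts.

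The H3K36 demethylases Kdm2b and Kdm2a bind unmethylated CpG islands through a CXXC domain, and KDM2B brings a variant Polycomb complex there. Kdm2b stood at 29.0 and 27.5 TPM and Kdm2a at 15.8 and 14.8 TPM, 1.84-fold and 1.86-fold apart. Kdm2b-201 led Kdm2b with 39.6% and 39.1%, and it shares only coding bases 1654 to 3927 of 3927 with the full form. The JmjC domain that removes methyl groups lies in the part before that. Full coding Kdm2b was 1.95 and 4.75 TPM against 12.1 and 12.9 TPM for Kdm2a, so the order turned. Kdm2b also shares 627 exon bases with Rnf34 on the other strand. Kdm8, whose demethylase activity is disputed, stood at 1.73 and 2.17 TPM.

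Prmt5, the main type II enzyme, which methylates spliceosomal Sm proteins and histones, held place 4 by gene total (ENSMUSG00000023110.8, chr14:54507187-54517525). It stood at 249 and 243 TPM, yet from only 4710 and 7519 counts. Kdm6b, at 102 and 112 TPM, had 37170 and 51617 counts. The short Prmt5-203 took 92.1% and 87.6% of Prmt5 TPM with 2487 and 2864 counts, since its effective length, the number of positions at which a fragment could start, was 194 and 190 bases. Full coding Prmt5-201 had 1991 and 4368 counts over 2691 bases, which is 14.0 and 24.3 TPM and place 15. Counts per kilobase of the longest coding transcript, scaled to 1000000 counts, put Prmt5 between these, at 28.2 and 34.7, in place 12. The genes of its partners, Wdr77 (MEP50), Clns1a (pICln) and Riok1, stood at 67.4 and 60.8, at 53.2 and 53.2, and at 9.79 and 9.60 TPM.

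Prmt3, a type I enzyme of ribosomal protein S2, stood at 111 and 129 TPM and had the same form. Prmt3-207 took 80.4% and 86.3% on an effective length of 260 and 256 bases, and full coding Prmt3 was 3.92 and 7.93 TPM, in place 29. Prmt6, which makes the asymmetric mark at H3R2, stood at 27.9 and 26.9 TPM, all full coding, and was therefore the highest arginine methyltransferase of the set on that measure. Prmt7, the type III enzyme, stood at 20.8 TPM in replicate 1 and 44.3 TPM in replicate 2, the widest ratio between the libraries of any member above 10 TPM. Its counts, 2236 and 4475, differed by 0.50 on the log2 scale after scaling, while its TPM differed by 1.09. Prmt7-207, of 851 bases, went from 425 to 1549 counts, and the full coding Prmt7-201 from 9.45 to 12.1 TPM. Prmt9 stood at 5.90 and 5.23 TPM and Prmt2 at 1.42 and 1.03 TPM. Prmt8, a brain enzyme anchored to the plasma membrane, had 0 counts in both libraries, which allows up to 3 counts, or 0.0484 and 0.0372 CPM.

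Across the whole set, the place of a gene therefore depended on which transcripts were counted. By mean full coding TPM the first 10 were Kmt5c, Kmt5a, Ehmt2, Kdm6b, Setd1a, Setd1b, Setdb1, Kmt2b, Kmt2d and Kdm5c, and 6 of these were also among the first 10 by gene total. Counts per kilobase of the longest coding transcript kept 7 of the first 10. Over the 50 members, the rank correlation of gene TPM with full coding TPM was 0.80, with Kdm5a entered at 0. With counts per kilobase it was 0.94. These are descriptions over genes that share libraries and depth. Full coding transcripts reached 1 TPM in both libraries for 41 members. Kdm5a is not counted among them, since no full coding level is given for it. Of the 49 members above 0, the transcript with the most TPM was full coding in 29, partial coding in 6, a retained intron in 6, a processed transcript in 6 and a target of nonsense-mediated decay in 2. A full coding transcript led 28 of the 47 detected members (59.6%) and 69.2% of detected protein-coding genes.

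By family, the median of log2(TPM + 1) was 4.12 for the 27 lysine methyltransferases and 4.11 for the 16 demethylases in replicate 1, and 4.59 and 4.11 in replicate 2. The difference of the medians was 0.24 ± 0.33 (SD, n = 2), less than its spread. On full coding transcripts, with Kdm5a entered at 0, it was 1.05 ± 0.04, and the methyltransferases were higher in both libraries. No test was made of either value over 2 libraries. Each of the 19 pairs of related enzymes kept its order in both libraries by gene TPM. With posterior mean TPM 18 of 19 did, and the exception was Kdm4a/Kdm4b, whose log2 ratio fell from 0.21 to 0.03. On full coding transcripts, 18 pairs could be given and 3 of them turned, namely Nsd2/Nsd3, Nsd1/Nsd3 and Kdm2b/Kdm2a.

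**Figure D3:**
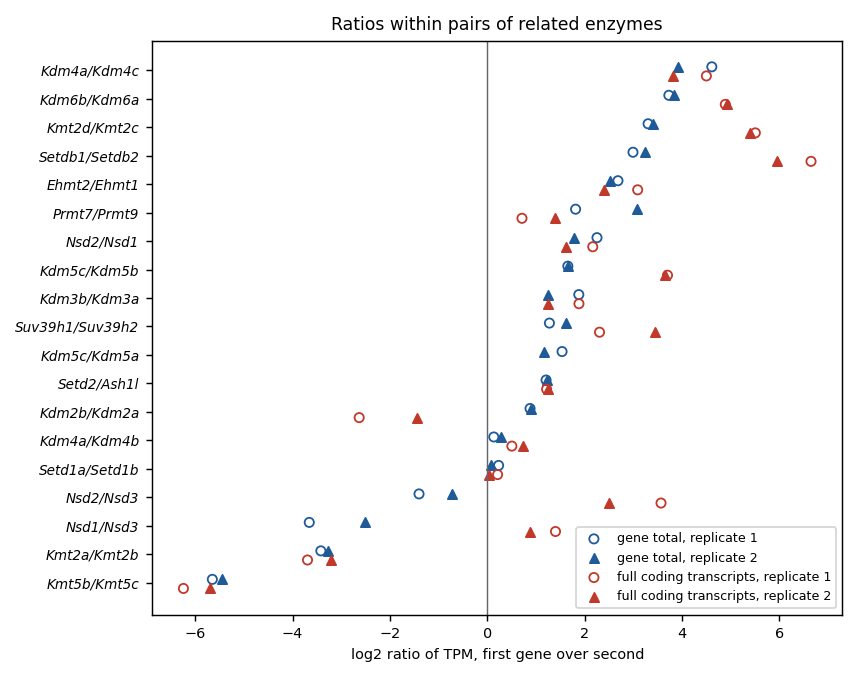
Log2 ratio of TPM of the first gene over the second in 19 pairs, with circles for replicate 1 and triangles for replicate 2. Blue marks are gene totals and red marks full coding transcripts. The red marks lie across the 0 line from the blue ones for Kdm2b/Kdm2a, Nsd2/Nsd3 and Nsd1/Nsd3, and Kdm5c/Kdm5a has no red marks.

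The enzymes work in complexes, and the companion genes were present. All 13 COMPASS and MLL partners were detected, from Hcfc2 at 4.29 and 3.66 TPM to Men1, which encodes menin, at 204 and 145 TPM, which was highest in the mean, while Hcfc1, at 146 and 186 TPM, was above it in replicate 2. Wdr5, the shared scaffold, stood at 130 and 110 TPM and Ash2l at 65.1 and 101 TPM. All 7 partners of DOT1L and the super elongation complex were detected, with Mllt1 at 47.7 and 47.9 TPM and Mllt3 at 12.1 and 10.8 TPM. So were all 9 H3K9 partners and readers, among them Trim28 at 199 and 222 TPM, and all 9 partners and readers of arginine methylation. For the methyl donor S-adenosylmethionine, 7 of 8 genes were detected, with Mat2a, its synthase, at 13.6 and 23.4 TPM. The exception was Mtap, which salvages methionine and was at 0.01 TPM and 0.

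Of 23 other writers and erasers that the naming rule leaves out, 17 were detected. Carm1, the arginine methyltransferase also named PRMT4, was highest at 158 and 144 TPM. Ezh2, the catalytic subunit of the Polycomb complex that opposes Kdm6b, stood at 31.4 and 30.2 TPM and Ezh1 at 1.91 and 4.23 TPM. Kdm1a (LSD1) stood at 34.5 and 29.4 TPM.

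The promoters of the members were mostly rich in CpG, whether or not the gene was on. RefSeq promoter entries (GRCm38.p6) matched 38 of 50 members, and the 250 bases before the start site were searched for the letters CG, which read the same on both strands. At least 10 were present in 36 of 38 members and in 37.8% of the 32851 entries of the table. The median was 22 over the 35 detected members with an entry and 6 over the table. The table values are over all its entries, not restricted to detected or protein-coding genes, while an entry was picked for each member. The sets are therefore unlike, and whether CpG richness is particular to these enzymes was not tested. The contrast of the highest and the silent member is shown, with each CG in capitals.
Ehmt2: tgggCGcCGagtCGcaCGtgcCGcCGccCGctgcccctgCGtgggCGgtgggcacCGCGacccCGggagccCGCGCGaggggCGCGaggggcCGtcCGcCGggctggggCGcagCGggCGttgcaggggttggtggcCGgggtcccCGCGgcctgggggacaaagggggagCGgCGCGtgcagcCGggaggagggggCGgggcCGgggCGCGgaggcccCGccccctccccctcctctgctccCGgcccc
Prmt8: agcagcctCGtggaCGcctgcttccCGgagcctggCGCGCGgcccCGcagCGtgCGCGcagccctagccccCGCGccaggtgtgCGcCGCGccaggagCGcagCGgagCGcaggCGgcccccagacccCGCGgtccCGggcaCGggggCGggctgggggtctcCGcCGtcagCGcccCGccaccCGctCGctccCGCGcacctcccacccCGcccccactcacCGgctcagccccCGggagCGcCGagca

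The Ehmt2 window (chr17:34898720-34898969, plus strand) held 36 CG and the Prmt8 window (chr6:127769160-127769409, minus strand) held 37, although Ehmt2 stood highest of the members and Prmt8 had no counts. Kdm7a, also under 1 TPM, had the most, at 56, and Kdm4d had 14. Kmt5c, in place 3, had 13. The start site of the Prmt8 entry lies 313 bases from that of its longest coding transcript in M21, and that of Ehmt2 lies 1 base away. The 2 members under 10 were Setd5, whose entry lies 27296 bases from the start of its longest coding transcript, and Kdm8.

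The libraries were then set against each other, gene by gene, by an exact binomial test (two-sided, conditional on the gene's summed counts) with Benjamini-Hochberg adjustment over 11636 genes. This test knows counting error only and compares libraries, not conditions. Of 49 members tested, 0 passed an adjusted p of 0.05 with at least a 2-fold difference, where 654 of all tested genes (5.62%) did. By unadjusted p under 0.05 there were 38 members in this test and 0 by edgeR's negative binomial exact test. The share of all tested genes at that mark is not given here, so these counts say nothing particular to the members. The edgeR test called 0 members with adjustment and the 2-fold rule, and 0.980% of all tested genes. Its dispersion came from these same 2 libraries, so their difference was taken as its own noise. Few calls were thus largely built in, and they do not show that the libraries agree. At 1.5-fold the exact test called 2 members, Nsd1 and Kdm4c, both higher in replicate 2, where 14.5% of all tested genes were called. Nsd1 had 1679 and 3994 counts (log2 ratio 0.75, adjusted p = 6.58e-75 by the exact test) and Kdm4c had 309 and 741 (log2 ratio 0.76, adjusted p = 4.03e-15 by the exact test). With no fold requirement 37 of 49 members were called, against 64.4% of all tested genes. Of the companion and marker genes, only Smyd5 passed the 2-fold rule, at 10.1 and 37.3 TPM, with the higher value in replicate 2.

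The members' log2 ratios of replicate 2 over replicate 1 ran from -0.47 in Kmt5c to 0.96 in Kdm4d, with a median of 0.06, beside 0.01 over all tested genes. The ratio of Kdm4d rests on 8 and 22 counts and was not called (adjusted p = 0.191 by the exact test). Members low in GC tended to be higher in replicate 2. The rank correlation of the ratio with the GC content of the leading transcript was -0.37 over 49 members and -0.29 over 11494 tested genes. Among the 25 members with lower GC, 17 were higher in replicate 2, and the median log2 ratio was 0.12. Among the 24 with higher GC, 11 were higher, with a median of -0.04. The GC content also moved with the level itself. Its rank correlation with log2(TPM + 1) was 0.66 over the members and 0.30 over all tested genes, and the median mean TPM was 7.65 in the members with lower GC and 50.2 in those with higher GC. These are descriptions over genes that share libraries, base composition and depth, and the part of GC in the levels was not tested.

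**Figure D4:**
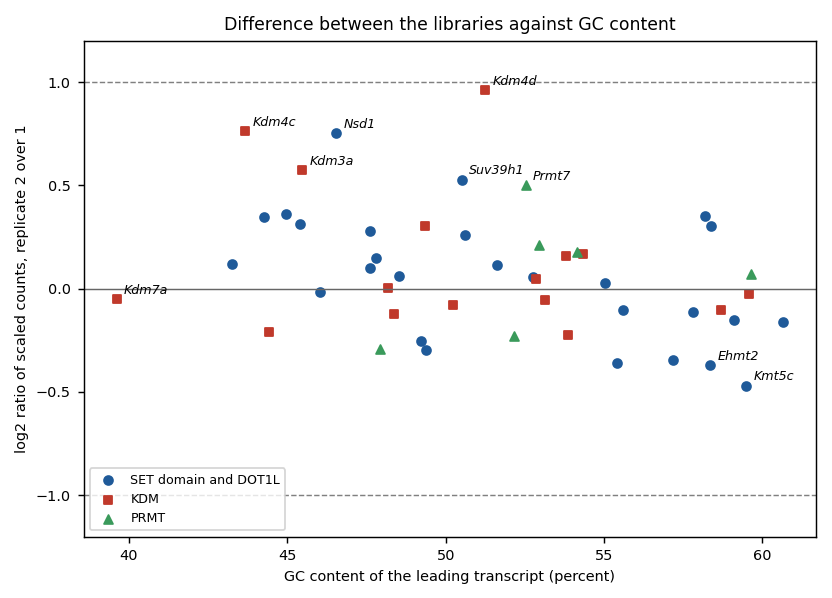
Log2 ratio of scaled counts, replicate 2 over replicate 1, of 49 members against the GC percent of the leading transcript. Blue circles are SET domain enzymes and DOT1L, red squares demethylases, green triangles arginine methyltransferases, and dashed lines mark 2-fold. All points lie between the lines, with Kmt5c and Ehmt2 low at high GC and Kdm4c and Nsd1 high at low GC.

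Exons of 24 members share bases with another gene in M21, and in 8 of these the other gene was at 1 TPM or more in both libraries. Besides Kdm1b and Dek, these include Setdb1 with Cers2, 75 bases, at 451 and 659 TPM, and Ash1l with Dap3, 352 bases, at 97.4 and 157 TPM, all on opposite strands. Reads in the shared bases cannot be told apart without strand. Some of the overlapping genes, among them Gm49388 at Setd1a and C130013H08Rik at Prmt6, had no level in these data. The count of 8 is therefore a minimum.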

How the data were processed

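The members, gene lists, pairs and tests were chosen with earlier results of these data known. Per the file headers, the authors deposited for each library expected counts (estimated read-pair counts that need not be whole), TPM (scaled by effective length and library total), FPKM, posterior mean TPM, and the percent of gene TPM per transcript, on mm10 with annotation M4 per the labels and notes. Aligner, quantifier and settings: not given in the sources used here. Entries were matched by Ensembl identifier to GENCODE M21 (42462 of 43346 genes, 98.0%). Of 335 member transcripts 332 matched, 33 of them with another length than the one deposited, so transcript types are those of M21 and not of M4. Spike-in and numbered entries were left out, and 1 transcript sequence is not reported here. A full coding transcript is typed protein-coding with at least 90% of the gene's longest coding sequence.

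Libraries were compared on expected counts rounded to whole numbers, for genes with 10 or more in either library, with TMM scaling (edgeR 4.0.16, R 4.3.3). The two-sided exact conditional binomial test doubled the smaller tail and was tested on simulated data. The simulated counts held counting error only, so they cannot show how the test behaves where libraries vary beyond it. Alternatives used DESeq2 1.42.0 size factors, edgeR's negative binomial exact test with the common dispersion of the libraries, other thresholds, posterior mean TPM and FPKM. Depth limits the precision of counts, and without molecular identifiers read pairs need not be separate molecules, so limits cover counting error only. Every member could be named, and of other genes those on the lists (complex partners, readers, other writers and erasers, methyl donor supply, cell markers). The remaining work ran in Python 3.11.15 with SciPy 1.17.1, NumPy 2.4.6 and pandas 2.3.3, and figures with matplotlib 3.10.9.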

Additional observations from a re-analysis of the deposited data

How the results depend on the processing

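The count of detected members was 47 at 0.5 TPM, with posterior mean TPM and in either library alone, 46 by FPKM, 41 on full coding transcripts and 38 at 5 TPM. No member was called different at 2-fold with DESeq2 size factors, library totals, no count filter or 50 counts, while 2 were called at 1.5-fold and 37 with no fold requirement. Library totals moved the median log2 ratio of all tested genes from 0.01 to 0.13, and that of the members from 0.06 to 0.17. No library could be left out of that comparison, which needs both. The methyltransferase minus demethylase median, 0.24, was -0.004 over detected members only and 1.05 on full coding transcripts, and 0.01 and 0.47 in the libraries alone. The value on full coding transcripts has Kdm5a entered at 0. The log2 ratio turned, on full coding transcripts, to 3.04 for Nsd2/Nsd3, 1.14 for Nsd1/Nsd3 and -2.04 for Kdm2b/Kdm2a. Kdm5c/Kdm5a could not be given there. Members led by a protein-coding transcript of either class numbered 35 of 49, and 33 and 37 in the libraries alone. The settings on full coding transcripts, and a count of 42 led by a protein-coding transcript when expected counts replaced TPM, were chosen after seeing the data. No paired analysis was possible because the libraries form 1 group. Short transcripts set the depth limit: Setd6-204, with 24.95 and 55.3 counts, took 24.4% and 44.4% of Setd6 TPM.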
